A study of Mus musculus with 16 samples.

Results

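Hmox1 and 9 other genes known as targets of the transcription factor NRF2 (gene symbol Nfe2l2) were followed in ear skin of mice that received lysophosphatidylcholine (LPC) during imiquimod treatment. The 10 genes, Hmox1, Nqo1, Gclc, Gclm, Srxn1, Txnrd1, Slc7a11, Ugdh, Gsta2 and Cbr3, were taken by symbol from the 19439 genes with a value in at least 1 library. All 10 were listed in every one of the 16 libraries, and all 10 passed the filter on low counts that left 15782 genes for testing. NRF2 is held in the cytoplasm and marked for degradation by KEAP1, whose reactive cysteines sense electrophiles and oxidants. When KEAP1 is modified, NRF2 accumulates, pairs with a small MAF protein in the nucleus and binds antioxidant response elements near genes of glutathione and thioredoxin metabolism and of detoxification. Hmox1 encodes haem oxygenase 1, which splits haem into biliverdin, carbon monoxide and iron. It is held down by the repressor BACH1, which haem itself displaces, and it also answers to other stress pathways.

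Every mouse was a BALB/c mouse aged 8 weeks whose ear was treated with imiquimod (IMQ), a Toll-like receptor 7 agonist that gives psoriasis-like inflammation. LPC is a phospholipid with a single fatty acyl chain, released by phospholipases from phosphatidylcholine. It was injected into the ear dermis as 10 µl of a 10 mM preparation, and vehicle mice received 10 µl of saline. The course was daily for 6 days, and skin was taken at day 4 or day 7 from 4 mice per treatment, which gave 4 groups of 4 libraries, named here by treatment and day. The labels do not say how many injections the day 4 mice had received, and no skin without IMQ was part of the comparison, so every value below is LPC on top of IMQ against saline on top of IMQ. The material was whole skin lesions. In such bulk RNA, fewer cells of a type and less RNA per cell cannot be told apart.

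Total expected counts were 18704197 to 20131513 per library. The epidermal keratins Krt5, Krt14 and Krt10 were found in all 16 libraries, and so the libraries match their skin label. Marker transcripts of other tissues varied widely. The summed level of 12 skeletal muscle markers was 3607 to 38335 CPM (a count relative to the total of its library, with totals scaled by TMM) in vehicle day 4 and 267 to 3453 CPM in LPC day 4, 2 ranges that did not overlap. At day 7 it was 2503 to 11664 CPM with vehicle, and with LPC it was 1010, 15040, 348 and 21482 CPM in mice 1 to 4. The 10 adipocyte markers followed the same division within LPC day 7, at 120, 1027, 255 and 4095 CPM. The 8 suprabasal keratinocyte markers summed to 4147 to 9025 CPM in LPC day 7 and 22211 to 31040 CPM in vehicle day 7.

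At day 4, Hmox1 and Ugdh rose with LPC and the other 8 genes did not pass the test. At day 7, Hmox1 rose and the other 9 did not pass. With the effect of LPC averaged over both days, Hmox1 and Ugdh rose. Genes were called at an adjusted p below 0.05 (edgeR quasi-likelihood test over all 16 libraries, Benjamini-Hochberg adjustment over 15782 genes). At day 4 the 2 calls among 10 genes stood beside 0.139% of all tested genes called (0.095% higher). At day 7 the 1 call among 10 stood beside 3.83% of all tested genes (2.38% higher), and for the mean of both days the 2 calls stood beside 4.07% (3.05% higher). The genes were chosen with earlier results of these data known, so these counts are not a test of the group.

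Hmox1 (Entrez 15368, chromosome 8, 75093618 to 75100593 on GRCm38) was about 3-fold higher in LPC skin. At day 4 it stood at 69.1, 50.5, 58.5 and 48.9 CPM in vehicle mice 1 to 4 and at 212, 111, 273 and 186 CPM in LPC mice 1 to 4. Every LPC library lay above every vehicle library, and the lowest, LPC mouse 2, was 1.95 times the vehicle mean. It rose by 1.78 ± 0.32 on the log2 scale (SE, n = 4 per group, edgeR adjusted p = 0.046), which is 3.44-fold.

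At day 7, Hmox1 was 64.9, 113, 59.5 and 83.3 CPM in vehicle mice 1 to 4 and 187, 298, 235 and 102 CPM in LPC mice 1 to 4. LPC mice 1, 2 and 3 lay above every vehicle mouse, while LPC mouse 4 lay below vehicle mouse 2. The rise was 1.36 ± 0.32 on the log2 scale (edgeR adjusted p = 0.031). Over both days it was 1.57 ± 0.23 (edgeR adjusted p = 0.0072), or 2.97-fold, and this call held when any 1 of the 16 libraries was left out (adjusted p from 0.0017 to 0.023). By group mean, LPC day 7 (205 ± 82.4 CPM, SD) and LPC day 4 (195 ± 67.2 CPM) came first, followed by vehicle day 7 (80.1 ± 23.9 CPM) and vehicle day 4 (56.8 ± 9.24 CPM). The 2 LPC groups overlapped each other, and so did the 2 vehicle groups. Neither neighbouring pair differed beyond its spread by the test (edgeR log2 difference of day 7 from day 4 of 0.07 ± 0.31 with LPC and 0.50 ± 0.31 with vehicle, adjusted p = 0.90 and 0.52).

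The calls of single days were less stable than the call over both days. When each of the 8 mice of the day 4 groups was left out in turn, Hmox1 stayed called without vehicle mouse 3 or LPC mouse 2 and was not called without any of the other 6 (adjusted p from 0.023 to 0.15, log2 fold change from 1.58 to 1.98). In each of those 6 fits 0 genes were called in all. At day 7 Hmox1 stayed called without vehicle mouse 2 or LPC mouse 4 and was not called without any of the other 6 (adjusted p from 0.012 to 0.093, log2 fold change from 1.11 to 1.58). Over all 16 libraries left out in turn, its call was kept in 6 cases at day 4 and 10 at day 7. With the skeletal muscle marker score as a covariate, the Hmox1 log2 fold change was 1.64 at day 4 (adjusted p = 0.395, with 0 genes called in all), 1.33 at day 7 (adjusted p = 0.0257) and 1.48 over both days (adjusted p = 0.0247). The muscle sums of vehicle and LPC did not overlap at day 4, so there this fit cannot tell muscle content from LPC. The day 7 call was lost when only the 2 day 7 groups entered the fit (1.38, adjusted p = 0.0904) and with limma on log2(FPKM + 0.1), on log2(FPKM + 1) and on log2(FPKM + 0.1) without a filter (1.19, 1.17 and 1.19, adjusted p = 0.0561, 0.0553 and 0.0699). The day 4 call was lost without a low-count filter (1.77, adjusted p = 0.0531).

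Ugdh (Entrez 22235, chromosome 5, 65413207 to 65435842) encodes UDP-glucose dehydrogenase, which makes the UDP-glucuronic acid used for hyaluronan and other glycosaminoglycans and for glucuronidation. At day 4 its level was 50.7, 51.4, 54.3 and 56.6 CPM in vehicle mice 1 to 4 and 208, 98.3, 94.9 and 131 CPM in LPC mice 1 to 4. The vehicle mice lay within a narrow band, and all 4 LPC mice were well above it. Ugdh rose by 1.32 ± 0.24 on the log2 scale (n = 4 per group, edgeR adjusted p = 0.049), or 2.50-fold.

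At day 7, Ugdh was 70.6, 81.7, 66.4 and 55.8 CPM with vehicle and 115, 71.3, 108 and 65.8 CPM with LPC in mice 1 to 4. LPC mice 1 and 3 were above every vehicle mouse, and LPC mice 2 and 4 were inside the vehicle range. For day 7 this gave a log2 fold change of 0.39 ± 0.24, without a call (edgeR adjusted p = 0.40). Over both days it was 0.86 ± 0.17 (edgeR adjusted p = 0.0205), and the call held without any 1 of the 16 libraries (adjusted p from 0.0098 to 0.0489). It was lost with the muscle score as a covariate (0.78, adjusted p = 0.0699). The day 4 call was kept only without vehicle mouse 3 or LPC mouse 2 among the 8 mice of those groups (adjusted p from 0.024 to 0.16, log2 fold change from 1.02 to 1.45). In each of the fits of those mice that lost it, 0 genes were called in all. The day 4 call was also lost with median-of-ratios size factors (1.32, adjusted p = 0.0578), without a low-count filter (1.32, adjusted p = 0.0531) and with the muscle score as a covariate (1.22, adjusted p = 0.388).

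**Figure D1:**
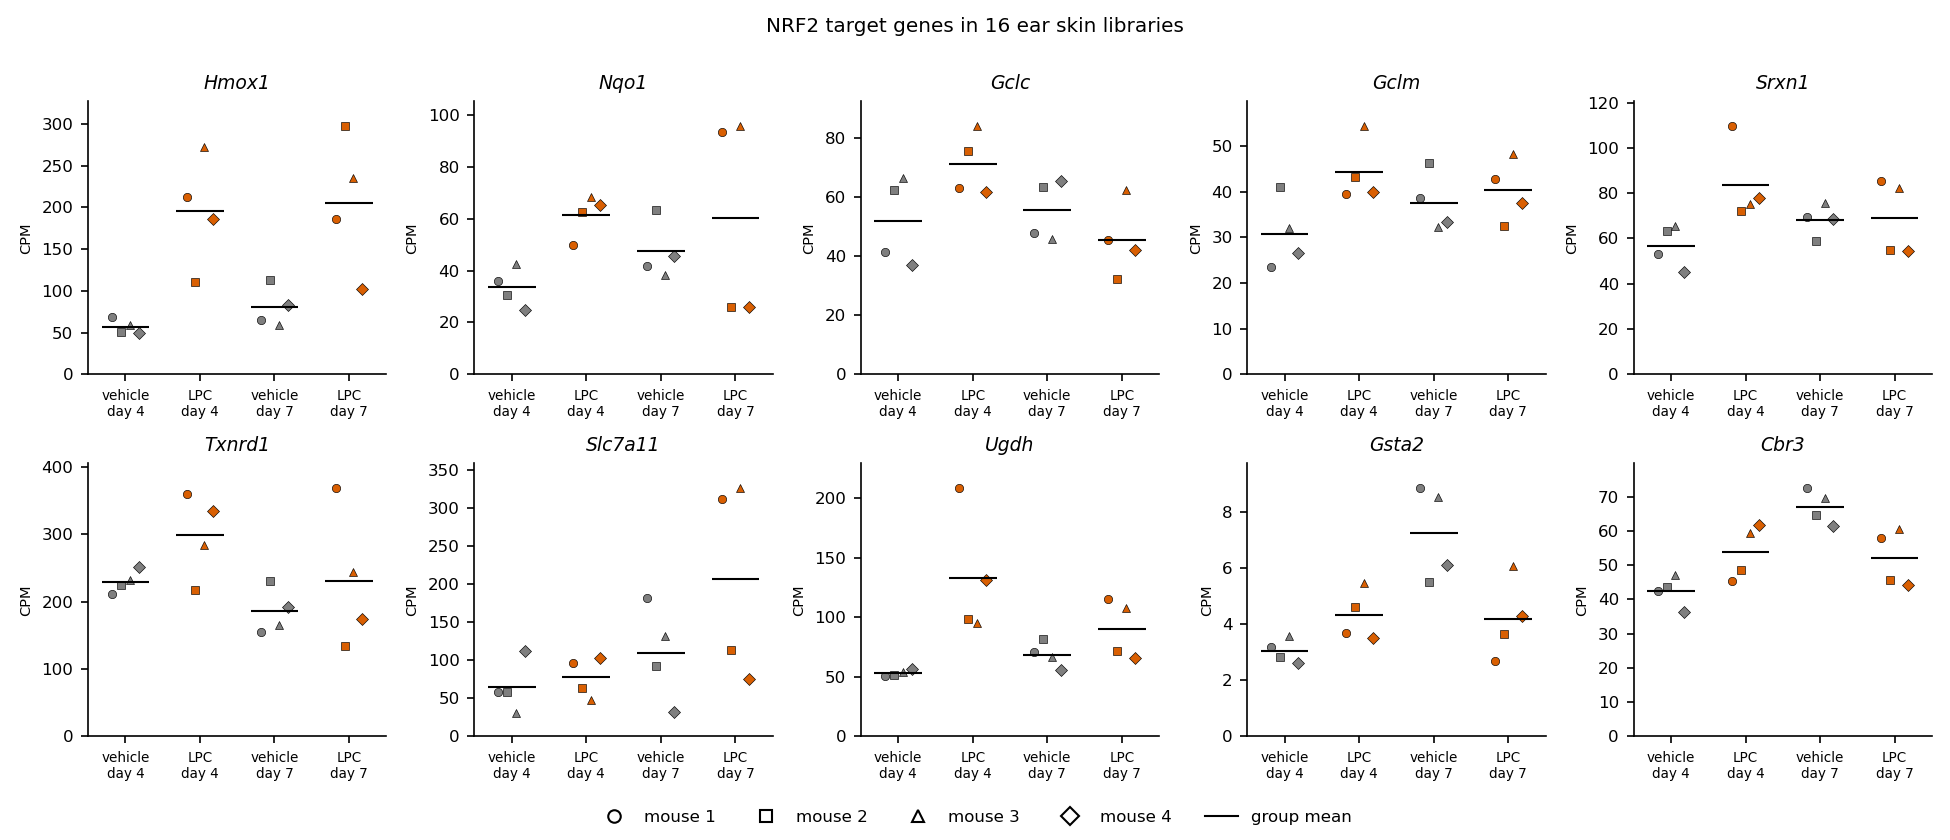
Level of each of the 10 genes in CPM (linear axes from 0) in 16 ear skin libraries, grey for vehicle and orange for LPC, with 1 symbol shape per mouse number and a line at the mean of 4 mice. Hmox1 lies between 48.9 and 69.1 CPM in vehicle day 4 and between 111 and 273 CPM in LPC day 4, while in LPC day 7 several genes divide into mice 1 and 3 above and mice 2 and 4 below.

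Antioxidant response elements were looked up in the sequence around the start of each gene, since these genes are grouped by that element. The windows, 250 bases before to 50 bases after each start, came from RefSeq on GRCm38.p6, and 8 of the 10 genes matched an entry; those of Hmox1 and Gclc were not used here. The core searched was TGACNNNGC on both strands. It was found in the windows of 4 of the 8 genes (50%), Ugdh, Gclm, Srxn1 and Txnrd1, and in 13.99% of 27025 genes in the whole table. A match is a description of the letters and not evidence of binding. A gene without a match may hold the element outside its window. The core of Srxn1 lies after the start, at 28 to 36 bases from it. Ugdh, called at day 4, had 2 cores, and the stretch that holds the first is shown because it lies before the start of the transcript in both the RefSeq and the GENCODE annotation. It covers 143 bases at chr5:65435950-65436092 (GRCm38.p6, minus strand), printed 5′ to 3′ on the gene's strand with the core in capitals.
Ugdh upstream: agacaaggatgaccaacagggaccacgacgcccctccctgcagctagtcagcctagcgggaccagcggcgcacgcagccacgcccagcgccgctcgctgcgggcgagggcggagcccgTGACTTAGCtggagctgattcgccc

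The other cores are shown with 10 bases on either side, on the strand of the gene, so that their letters can be compared. Each reads in the reverse direction, so the capitals begin with GC and end with GTCA. The core of Ugdh lies at chr5:65435928-65435936, that of Gclm at chr3:122245423-122245431, that of Srxn1 at chr2:152105552-152105560 and that of Txnrd1 at chr10:82859114-82859122, in the second of its 3 windows.
Ugdh, the second core: tcctcaagggGCGTGGTCAtacagttcgg
Gclm: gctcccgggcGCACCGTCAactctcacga
Srxn1: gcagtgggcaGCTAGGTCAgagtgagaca
Txnrd1: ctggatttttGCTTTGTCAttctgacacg

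After these windows had been read, the form with G in place of C at the fourth base, TGAGNNNGC, was added to the search. It was present in Srxn1, at 2 sites, and in Slc7a11, and in 19.8% of genes in the table. The Srxn1 site at chr2:152105479-152105487, upstream of the start, overlaps the AP-1 core TGACTCA, which reads as TGAGTCA on the gene's strand. The AP-1 core was present in 1 of the 8 genes, Srxn1, and in 5.95% of genes in the table.
Srxn1, form with G: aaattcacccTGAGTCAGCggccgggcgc
Slc7a11, form with G: taatgttggcGCTTTCTCAagctggagtt

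Among the enzymes of detoxification, Nqo1 was higher with LPC at day 4 in every mouse but did not pass the test. Nqo1 (Entrez 18104, chromosome 8, 107388225 to 107403205) encodes a quinone reductase and is a standard readout of NRF2. It stood at 36.0, 30.6, 42.5 and 25.0 CPM in vehicle mice 1 to 4 and at 49.8, 62.4, 68.4 and 65.4 CPM in LPC mice 1 to 4 at day 4. The groups did not overlap, and the log2 fold change came to 0.88 ± 0.38 (edgeR adjusted p = 0.22). When only the 2 day 4 groups entered the fit, Nqo1 was called (0.85, adjusted p = 0.0209), as were 1333 genes in all. With the muscle score as a covariate, which cannot be told apart from LPC at day 4, the value turned to -0.27 (adjusted p = 0.877). At day 7, Nqo1 was 41.9, 63.4, 38.5 and 45.8 CPM with vehicle and 93.6, 25.8, 95.8 and 26.0 CPM with LPC. LPC mice 1 and 3 were above all vehicle mice and LPC mice 2 and 4 below all of them, which left a log2 fold change of 0.35 ± 0.37 (edgeR adjusted p = 0.68).

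Cbr3 and Gsta2 had log2 fold changes of opposite sign on the 2 days. Cbr3 (Entrez 109857, chromosome 16, 93683219 to 93690991) encodes a carbonyl reductase. Its levels at day 7 were 72.5, 64.6, 69.7 and 61.6 CPM in vehicle mice 1 to 4 and 57.8, 45.7, 60.6 and 44.1 CPM in LPC mice 1 to 4. All LPC libraries were below all vehicle libraries, LPC mouse 3 narrowly so. Cbr3 had a log2 fold change of -0.37 ± 0.14 (edgeR adjusted p = 0.147) at day 7 and of 0.34 ± 0.14 (edgeR adjusted p = 0.187) at day 4. Cbr3 passed the test at day 7 with the muscle score as a covariate (-0.44, adjusted p = 0.0378) and with limma on log2(FPKM + 0.1) (-0.49, adjusted p = 0.0491). In that limma fit the median of all genes was itself -0.12.

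Gsta2 (Entrez 14858, chromosome 9, 78331018 to 78347192) encodes an alpha class glutathione S-transferase. It had the lowest counts of the 10 genes, 44.4 to 170 expected counts per library, and a near-identical paralogue, Gsta1, with which reads may have been shared, so its values are uncertain. At day 7 it was 8.85, 5.51, 8.52 and 6.11 CPM with vehicle and 2.67, 3.65, 6.09 and 4.30 CPM with LPC in mice 1 to 4. LPC mice 1, 2 and 4 were below every vehicle mouse, and LPC mouse 3 lay just under vehicle mouse 4. For Gsta2 the log2 fold change came to -0.80 ± 0.26 (edgeR adjusted p = 0.105) at day 7 and 0.51 ± 0.26 (edgeR adjusted p = 0.31) at day 4.

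The genes that feed glutathione synthesis did not pass the test on either day. Slc7a11 (Entrez 26570, chromosome 3, 50364936 to 50499087) encodes the cystine importer of system xc-, and it also responds to amino acid stress through ATF4. At day 7 it was 182, 92.5, 131 and 31.3 CPM in vehicle mice 1 to 4 and 312, 113, 326 and 75.0 CPM in LPC mice 1 to 4. LPC mice 1 and 3 were far above the vehicle mice, and LPC mice 2 and 4 were within their range. The log2 fold change came to 0.92 ± 0.55 (edgeR adjusted p = 0.38), with the widest standard error of the 10 genes, and 0.26 ± 0.54 at day 4 (edgeR adjusted p = 0.83).

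Gclc and Gclm encode the catalytic and modifier subunits of glutamate-cysteine ligase, the first step of glutathione synthesis. Gclm (Entrez 14630, chromosome 3, 122245487 to 122267215) ran from 23.5 to 41.0 CPM in vehicle day 4 and from 39.6 to 54.4 CPM in LPC day 4, so that only vehicle mouse 2 reached the LPC range. Its log2 fold change was 0.52 ± 0.19 at day 4 (edgeR adjusted p = 0.14) and 0.10 ± 0.19 at day 7 (edgeR adjusted p = 0.83). Gclc (Entrez 14629, chromosome 9, 77754535 to 77794489) ran from 37.2 to 66.7 CPM in vehicle day 4 and from 61.7 to 84.2 CPM in LPC day 4. At day 7 the ranges were 45.9 to 65.6 CPM with vehicle and 32.3 to 62.6 CPM with LPC. The log2 fold change of Gclc was 0.45 ± 0.22 at day 4 (edgeR adjusted p = 0.29) and -0.29 ± 0.22 at day 7 (edgeR adjusted p = 0.54). Only the day 4 values of the 2 subunits had the same sign.

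The thioredoxin branch was also without a call. Srxn1 (Entrez 76650, chromosome 2, 152105524 to 152111376) encodes sulfiredoxin, which restores over-oxidised peroxiredoxins. At day 4 it was 53.3, 63.2, 65.6 and 45.0 CPM with vehicle and 110, 72.0, 75.2 and 77.9 CPM with LPC in mice 1 to 4. The groups did not overlap, LPC mouse 1 stood above the rest, and the log2 fold change came to 0.56 ± 0.19 (edgeR adjusted p = 0.12). At day 7 it was 0.02 ± 0.19 (edgeR adjusted p = 0.97). Txnrd1 (Entrez 50493, chromosome 10, 82833951 to 82897724) encodes cytosolic thioredoxin reductase. It ran from 211 to 251 CPM in vehicle day 4 and from 217 to 360 CPM in LPC day 4, with LPC mouse 2 inside the vehicle range. At day 7 it ran from 154 to 230 CPM with vehicle and from 134 to 368 CPM with LPC. The log2 fold change was 0.38 ± 0.25 at day 4 and 0.31 ± 0.25 at day 7 (edgeR adjusted p = 0.43 and 0.56).

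**Figure D2:**
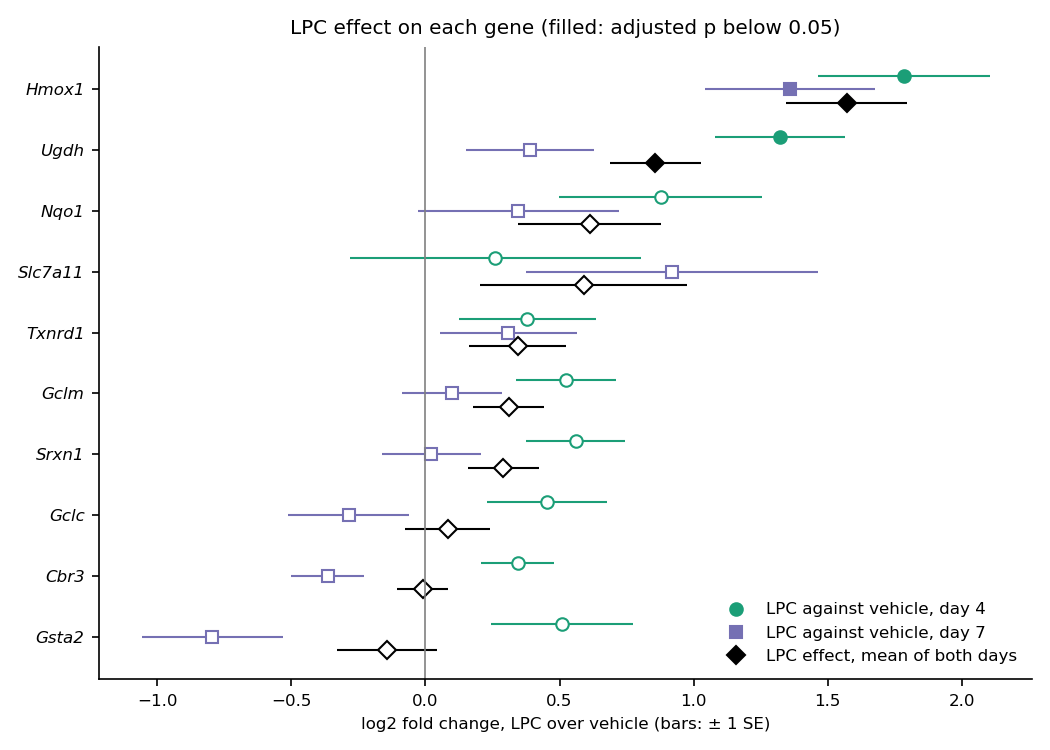
Log2 fold change of LPC over vehicle for each gene (x axis, bars ± 1 SE from edgeR) at day 4, at day 7 and as the mean of both days, with filled symbols for an adjusted p below 0.05. Hmox1 is filled in all 3 comparisons and Ugdh at day 4 and for the mean, and all 10 values lie above 0 at day 4 against 7 at day 7.

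Over the 10 genes at day 4, 10 log2 fold changes were above 0 and their median was 0.52, where the median of all tested genes was 0.00 and 50.3% of genes had a value above 0. In the same comparison, 7 of 8 basal and 7 of 8 suprabasal keratinocyte markers had values above 0, with medians of 0.45 and 0.46. Medians were also above 0 for the neutrophil, fibroblast and red cell lists. They were below 0 for the macrophage, skeletal muscle (-4.24), adipocyte, hair follicle, sebaceous gland and endothelial lists. The part of tissue content in the values of the 10 genes was not tested. Without adjustment, 6 of the 10 had a p below 0.05 in the higher direction, beside 9.02% of all genes. Hmox1, Nqo1, Srxn1 and Ugdh, 4 of 10, were entirely above the vehicle range, beside 7.42% of all genes. At day 7, 7 values were above 0 and 3 below, and the median was 0.20 (all genes 0.02). Without adjustment 1 was higher, beside 11.3% of all genes, and 2 were lower, beside 8.47%. Cbr3 was the 1 gene of the 10 whose groups did not overlap at day 7, and it was lower with LPC, beside 5.16% of all genes. No gene of the 10 was entirely higher, beside 5.7% of all genes. Averaged over both days, 8 values were above 0, the median was 0.33 (all genes -0.01), and 5 had an unadjusted p below 0.05 in the higher direction, beside 12.9% of all genes.

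The LPC libraries of day 7 were unlike each other in these genes. LPC mouse 1 had 6 of the 10 genes above every vehicle library of its day and 3 below (Gclc, Gsta2 and Cbr3). LPC mouse 3 had 7 above and 1 below (Cbr3). LPC mouse 2 had 1 above, Hmox1 at 298 CPM, the highest Hmox1 level of all 16 libraries, and 6 below (Nqo1, Gclc, Srxn1, Txnrd1, Gsta2 and Cbr3). LPC mouse 4 had 0 above and 5 below (Nqo1, Gclc, Srxn1, Gsta2 and Cbr3). So a high Hmox1 level occurred in LPC day 7 both with raised Nqo1 and Txnrd1, in mouse 1, and with low ones, in mouse 2. The 4 LPC libraries of day 4 had 6, 8, 9 and 6 genes above every vehicle library in mice 1 to 4 and 0 below in each. Mice 2 and 4 of LPC day 7 were the 2 libraries of that group with high skeletal muscle and adipocyte marker sums, given above. Their macrophage, fibroblast and endothelial sums were also above those of mice 1 and 3. Neutrophil sums were 11791, 5745, 13102 and 4579 CPM in mice 1 to 4. Basal keratinocyte sums were 35018, 13506, 26287 and 22112 CPM, so both lists were lower in mice 2 and 4. The suprabasal, hair follicle, sebaceous gland and red cell sums did not divide in this way. The part of these cell types in the low Nqo1 and Srxn1 of mice 2 and 4 was not tested. Cbr3 was below every vehicle library of day 7 in mice 1 and 3 as well.

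**Figure D3:**
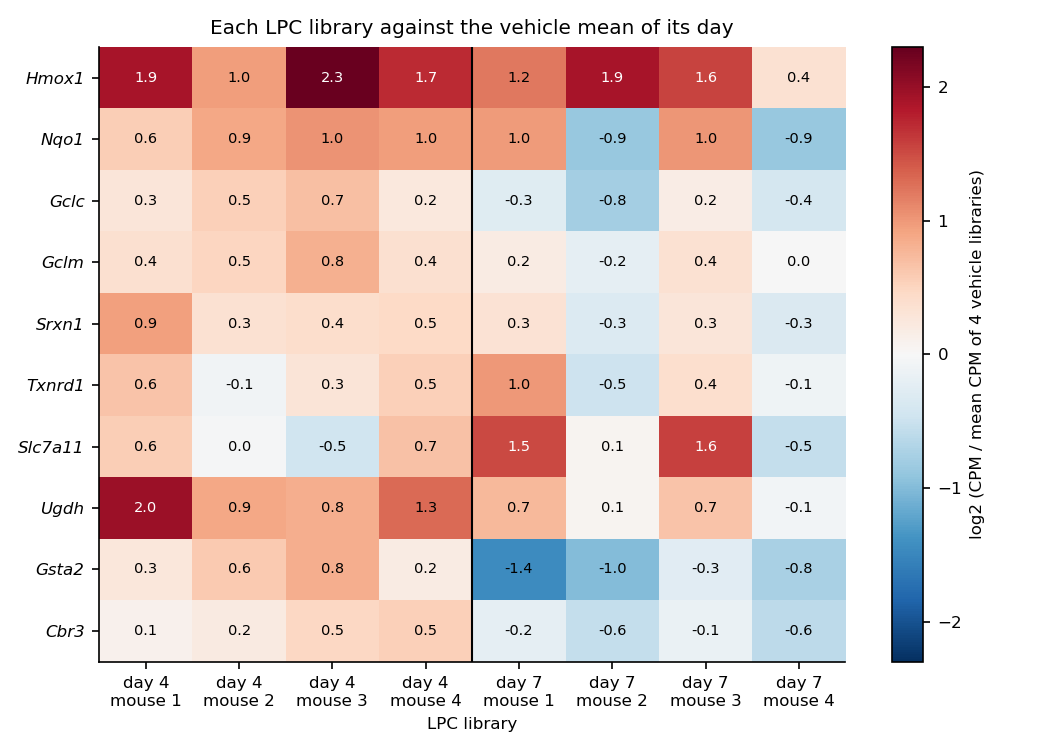
Heat map of log2 of the CPM in each LPC library over the mean CPM of the 4 vehicle libraries of the same day, with 1 row per gene and 1 column per mouse. The 4 columns of day 4 are mostly red. At day 7 the columns of mice 2 and 4 are blue for Nqo1, Gclc, Srxn1, Txnrd1, Gsta2 and Cbr3, although Txnrd1 is near white in mouse 4. Hmox1 is 3.72-fold and 1.28-fold the vehicle mean in mice 2 and 4. Gsta2 and Cbr3 are also below the vehicle mean in mice 1 and 3, and Gclc in mouse 1.

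Whether the effect of LPC changed from day 4 to day 7 was tested as the difference of the 2 log2 fold changes, and no gene of the 10 passed. Over all genes edgeR called 0%, with 16.9% at an unadjusted p below 0.05 and 585 genes called by DESeq2. The difference was below 0 for 9 of the 10 genes, with a median of -0.53 (all genes 0.00), and 4 had an unadjusted p below 0.05 in that direction, beside 6.15% of all genes. These were Gsta2 (-1.31 ± 0.37, adjusted p = 0.168), Ugdh (-0.93 ± 0.34, adjusted p = 0.203), Gclc (-0.74 ± 0.32, adjusted p = 0.258) and Cbr3 (-0.71 ± 0.19, adjusted p = 0.159). DESeq2 called Cbr3 (-0.67) and Gsta2 (-1.27), both at adjusted p = 0.0375. For Hmox1 the difference was -0.42 ± 0.44 (edgeR adjusted p = 0.65), which does not show that its response was alike on both days.

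Between the 2 days, Gsta2 and Cbr3 had vehicle groups that did not overlap, both higher at day 7 (beside 3.45% of all genes), though neither gene was called. Gsta2 was 2.60 to 3.58 CPM in vehicle day 4 and 5.51 to 8.85 CPM in vehicle day 7, with a log2 fold change of 1.25 ± 0.27 (edgeR adjusted p = 0.16). Cbr3 was 36.4 to 47.2 CPM in vehicle day 4 and 61.6 to 72.5 CPM in vehicle day 7, with 0.66 ± 0.14 (edgeR adjusted p = 0.16). In this comparison edgeR called 0 of 10 genes beside 0% of all genes (13% at an unadjusted p below 0.05), while DESeq2 called 238 genes, Gsta2 and Cbr3 among them (adjusted p = 0.00544 and 0.00653). Both were also called by edgeR without vehicle day 7 mouse 4 (adjusted p = 0.0431 for each).

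In LPC mice, 0 of the 10 genes were called between day 7 and day 4, beside 11% of all genes. Gclc was the lowest by p, at -0.64 ± 0.22 (edgeR adjusted p = 0.075), followed by Slc7a11 at 1.41 ± 0.55 (adjusted p = 0.10) and Ugdh at -0.56 ± 0.24 (adjusted p = 0.13). Without LPC day 7 mouse 3 the value of Gclc was -0.83 (adjusted p = 0.0299), and without LPC day 7 mouse 1 that of Txnrd1 was -0.70 (adjusted p = 0.0496). DESeq2 called Gclc (-0.63, adjusted p = 0.0453) and Slc7a11 (1.42, adjusted p = 0.0431), among 3073 genes in all. Filtered limma on log2(FPKM + 0.1) and log2(FPKM + 1) called Gclc (adjusted p = 0.0447 and 0.0458). The median of all genes in those limma fits was -0.12 and -0.09.

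Levels of different genes can be compared per transcript length, as FPKM (fragments scaled to transcript length and library size). Over 16 libraries the mean was highest for Hmox1 (81.5 ± 50.3 FPKM, SD), then Txnrd1 (68.2 ± 19.0) and Cbr3 (46.1 ± 9.10). Ugdh (35.4 ± 16.3), Nqo1 (32.4 ± 13.1) and Srxn1 (24.3 ± 5.15) followed. Gclm (18.4 ± 3.77), Gclc (17.3 ± 5.06), Slc7a11 (12.1 ± 8.43) and Gsta2 (5.56 ± 2.27) were the lowest. Apart from the steps from Txnrd1 to Cbr3 and from Srxn1 to Gclm, the means of neighbours in this order differed by less than the SD of at least 1 of the 2. By group mean Hmox1 was the 3rd of the 10 genes in both vehicle groups, at 36.1 ± 5.13 FPKM at day 4 and 49.8 ± 16.01 FPKM at day 7, behind Txnrd1 and Cbr3. In both LPC groups it was the 1st, at 121 ± 39.3 FPKM and 119 ± 52.9 FPKM.

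Few regulators of the pathway or their relatives were called. Of 15 genes that control or are related to NRF2, Nfe2l2, Keap1 and the small MAF genes among them, 0 were called at day 4. Nfe2 rose at day 7, Maff rose over both days, and none fell. Of all tested genes, 0.095%, 2.38% and 3.05% were called higher at day 4, at day 7 and over both days. Maff, whose product is a partner of NRF2, averaged 41.7 ± 8.13 CPM in vehicle and 84.4 ± 16.6 CPM in LPC mice at day 4, and 35.7 ± 3.95 and 68.2 ± 36.7 CPM at day 7 (SD, n = 4), with a log2 fold change over both days of 0.98 ± 0.21 (edgeR adjusted p = 0.0262). Nfe2 is the haematopoietic relative of NRF2, and it rose by 2.47 ± 0.61 on the log2 scale at day 7 (edgeR adjusted p = 0.0384) from a low level, 1.12 ± 0.736 to 6.24 ± 3.05 CPM. Nfe2l2 itself had 0.25 ± 0.25 at day 4 and 0.72 ± 0.25 at day 7 (edgeR adjusted p = 0.61 and 0.12). The log2 fold changes over both days were 0.09 ± 0.11 for Keap1, 0.17 ± 0.10 for Bach1, 0.04 ± 0.07 for Mafg and 0.33 ± 0.15 for Mafk, none called (edgeR adjusted p from 0.18 to 0.76). RNA levels do not measure the amount of NRF2 protein, which is set mainly by its degradation.

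Of 29 tested genes among 31 further NRF2 targets, 0 were called at day 4, 1 rose at day 7, 3 rose over both days and none fell. Of all tested genes 0.095%, 2.38% and 3.05% were called higher in these comparisons, so that the single call at day 7 was near the share of all genes. Their median log2 fold change was 0.18 at day 4, 0.14 at day 7 and 0.13 over both days. The 3 were Fth1, Blvrb and Gsr, of which Fth1 also rose at day 7. Fth1 encodes the ferritin heavy chain, which stores iron such as that released from haem. It stood at 1365, 1706, 1363 and 1283 CPM in vehicle day 7 mice 1 to 4 and at 5661, 2769, 4175 and 2658 CPM in LPC day 7, without overlap, a log2 fold change of 1.42 ± 0.28 (edgeR adjusted p = 0.0186). At day 4 it was 0.38 ± 0.27 (edgeR adjusted p = 0.46). Blvrb, which encodes biliverdin reductase B, had 0.48 ± 0.12 over both days (edgeR adjusted p = 0.0425). Gsr, glutathione reductase, had 0.58 ± 0.16 (edgeR adjusted p = 0.0497).

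Of 18 haem and iron genes, 0 were called at day 4, 3 rose at day 7 and 2 rose over both days (Fth1 and Blvrb), with none lower. Calls over all genes also numbered more at day 7 (3.83%) and over both days (4.07%) than at day 4 (0.139%). The 3 at day 7 were Fth1, Slc11a1, the iron transporter of phagocyte lysosomes (2.25 ± 0.49, edgeR adjusted p = 0.0268), and Hpx, the haem scavenger haemopexin (1.73 ± 0.44, edgeR adjusted p = 0.0443). Hmox2, the constitutive haem oxygenase, had -0.02 ± 0.13 at day 4 and 0.38 ± 0.13 at day 7 (edgeR adjusted p = 0.95 and 0.12).

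Glutathione and thioredoxin lists gave few calls. Of all tested genes, 0.139%, 3.83% and 4.07% were called in either direction at day 4, at day 7 and over both days. Of 16 genes of glutathione synthesis and use, Ggct fell at day 7 (-0.94 ± 0.19, edgeR adjusted p = 0.020), and over both days Gsr rose and Mgst3 fell (-0.62 ± 0.16, edgeR adjusted p = 0.0458). Of 14 thioredoxin and peroxiredoxin genes and 15 tested glutathione S-transferases, 0 were called in these 3 comparisons. At an unadjusted p below 0.05, 2, 4 and 5 of the thioredoxin genes were higher and 3, 0 and 2 lower at day 4, at day 7 and over both days. Among the transferases 1, 0 and 1 were higher and 3, 2 and 4 lower. Of all tested genes, 9.02%, 11.3% and 12.9% were higher and 10.2%, 8.47% and 11.5% lower by the same measure.

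Ugdh feeds hyaluronan synthesis, and its neighbours there were also examined. Beside the counts here, 0.095% of all tested genes were called higher at day 4, 2.38% at day 7 and 3.05% over both days. Of 11 genes of hyaluronan and UDP-sugar metabolism, 0 passed on either day alone and Has1 and Has2, both hyaluronan synthases, rose over both days, by 2.09 ± 0.44 and 2.06 ± 0.42 on the log2 scale (edgeR adjusted p = 0.0252 and 0.0224). Has2 stood at 9.75 ± 4.92 CPM with vehicle and 36.8 ± 28.3 CPM with LPC at day 4, and at 9.51 ± 3.86 and 44.0 ± 31.5 CPM at day 7. The highest were LPC day 4 mouse 1, at 76.2 CPM, and LPC day 7 mouse 1, a different animal, at 85.4 CPM. Of 9 carbonyl reduction genes, Akr1b3, an aldose reductase, rose over both days (0.81 ± 0.19, edgeR adjusted p = 0.0355). Of 15 ATF4 targets, a stress programme that shares Slc7a11 with NRF2, Atf3 rose at day 4 (2.46 ± 0.44, edgeR adjusted p = 0.0459), Trib3 rose at day 7 (1.31 ± 0.31, edgeR adjusted p = 0.0358), and both rose over both days, by 1.96 ± 0.30 and 0.88 ± 0.22 (edgeR adjusted p = 0.00825 and 0.0417).

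When each of the 16 libraries was left out in turn, the call over both days was lost in 0 cases for Atf3, 2 for Has2, 4 for Has1, 5 each for Fth1 and Maff, 10 for Akr1b3, 11 for Trib3, 12 each for Blvrb and Mgst3 and 14 for Gsr, at adjusted p up to 0.102. With the muscle score as a covariate none of these 10 genes but Atf3 was called over both days (adjusted p from 0.0781 to 0.431). The log2 fold changes then were 1.93 for Has2, 0.49 for Blvrb, 0.77 for Fth1 and 0.71 for Akr1b3, against 2.06, 0.48, 0.90 and 0.81 without the covariate. They were 1.39 for Has1, 0.63 for Maff, 0.67 for Trib3, 0.26 for Gsr and -0.33 for Mgst3, against 2.09, 0.98, 0.88, 0.58 and -0.62.

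Calls of the listed pathway genes on 1 day depended on the settings too. With each of the 16 libraries left out in turn, the call was lost in 9 cases for Atf3 at day 4, and at day 7 in 13 for Hpx, 6 for Nfe2, 5 for Trib3, 3 each for Fth1 and Slc11a1 and 2 for Ggct. All 6 of the day 7 calls were lost when only the day 7 groups entered the fit (adjusted p = 0.0538 for Slc11a1, 0.0586 for Fth1, 0.0675 for Ggct, 0.0776 for Hpx, 0.0897 for Nfe2 and 0.135 for Trib3), where 45 genes were called in all. Without a low-count filter Hpx (adjusted p = 0.0513) and Atf3 (adjusted p = 0.0531) were lost, and with the muscle score Atf3 at day 4 (2.49, adjusted p = 0.31). With limma on log2(FPKM + 0.1) without a filter Hpx (adjusted p = 0.0652) and Trib3 (adjusted p = 0.0624) were lost. Trib3 was also lost with the filter (adjusted p = 0.0503) and on log2(FPKM + 1) (adjusted p = 0.0507).

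**Figure D4:**
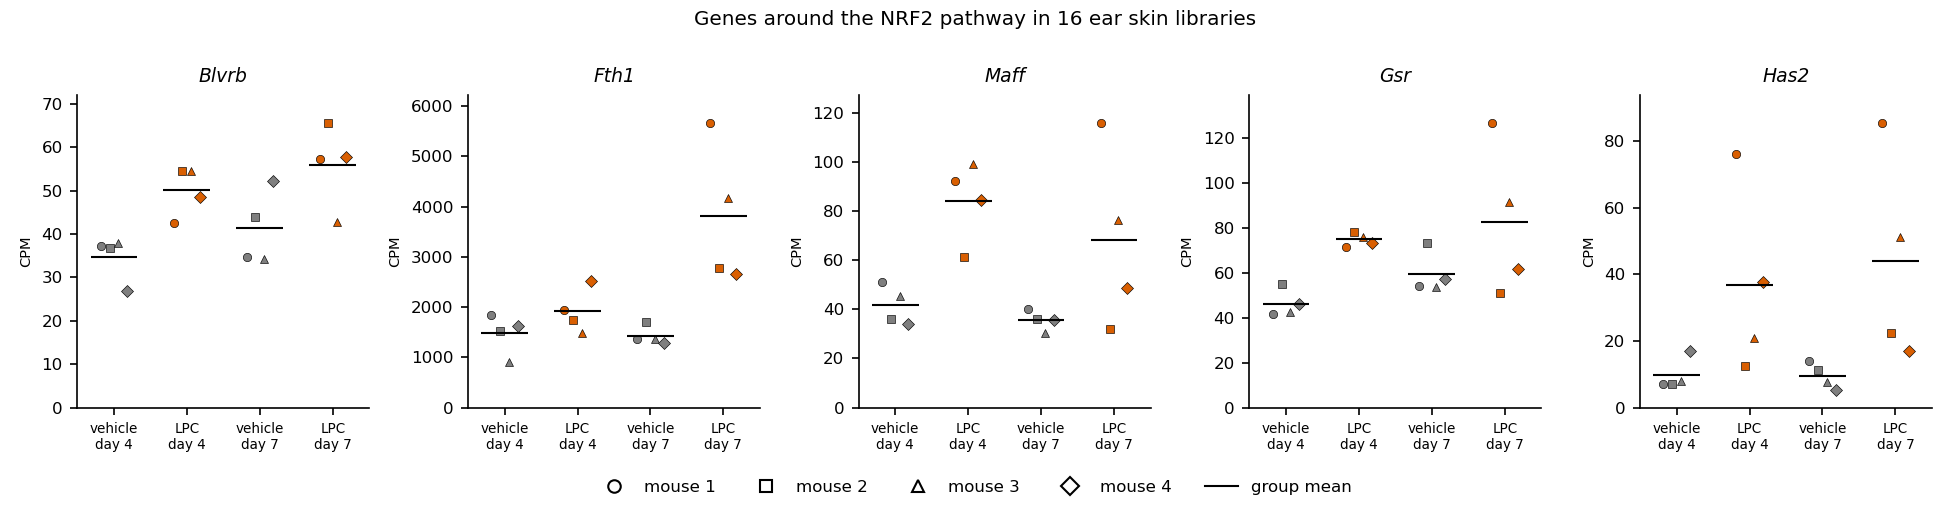
Level of Blvrb, Fth1, Maff, Gsr and Has2 in CPM (linear axes from 0) in the 16 libraries, grey for vehicle and orange for LPC, with 1 symbol shape per mouse number and a line at the mean of 4 mice. Fth1 in LPC day 7 lies between 2658 and 5661 CPM, above all vehicle mice, and in LPC day 7 Maff, Gsr and Has2 are higher in mice 1 and 3 than in mice 2 and 4.

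Markers of other cell types that can hold much haem oxygenase 1 were set beside Hmox1. The 12 macrophage markers summed to 526 to 707 CPM with vehicle and 342 to 699 CPM with LPC at day 4. At day 7 they summed to 505 to 1136 CPM with vehicle and to 1288, 2595, 960 and 1554 CPM in LPC mice 1 to 4. At day 4, where Hmox1 was higher in every LPC mouse, the macrophage sum was not: 3 of its 12 markers had a log2 fold change above 0, with a median of -0.62. In LPC day 7 mouse 2, which had the highest Hmox1 level, the macrophage sum was also the highest of the 16 libraries. Transcripts of red blood cell precursors, 7 of 8 markers matched, summed to 35.7 to 102 CPM in vehicle day 4 and to 333, 327, 62.8 and 196 CPM in LPC day 4. At day 7 they summed to 61.0 to 247 CPM with vehicle and to 418, 740, 154 and 60.5 CPM with LPC. The haemoglobin gene Hba-a1 made up much of the sum.

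Over the 11 marker lists, 0 genes were called at day 4. Over all tested genes, 0.139% were called at day 4, 3.83% at day 7 and 4.07% over both days. At day 7, 3 of 9 tested neutrophil markers rose, 6 of 8 suprabasal keratinocyte markers and 1 of 8 sebaceous gland markers fell, and none was called in the lists for macrophages, skeletal muscle, adipocytes, basal keratinocytes, hair follicle, fibroblasts, endothelium and red cells. Over both days, 3 neutrophil markers and Lama3 of the basal keratinocyte list rose, and Mb of the muscle list fell. At an unadjusted p below 0.05, all 12 muscle markers were lower at day 4, beside 10.2% of all genes. Of 6 tested red cell markers, 4 were higher at day 4 by that measure, beside 9.02% of all genes, and 5 had a log2 fold change above 0, with a median of 1.66. Of the lists other than that for red cells, markers at 0 in some libraries were Elane of the neutrophil list in 8, Shh of the hair follicle list in 2 and Lep of the adipocyte list in 1. What part these cell types had in the levels of the 10 genes was not tested. The muscle score used as a covariate cannot decide it at day 4, where the muscle sums of vehicle and LPC did not overlap.

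**Figure D5:**
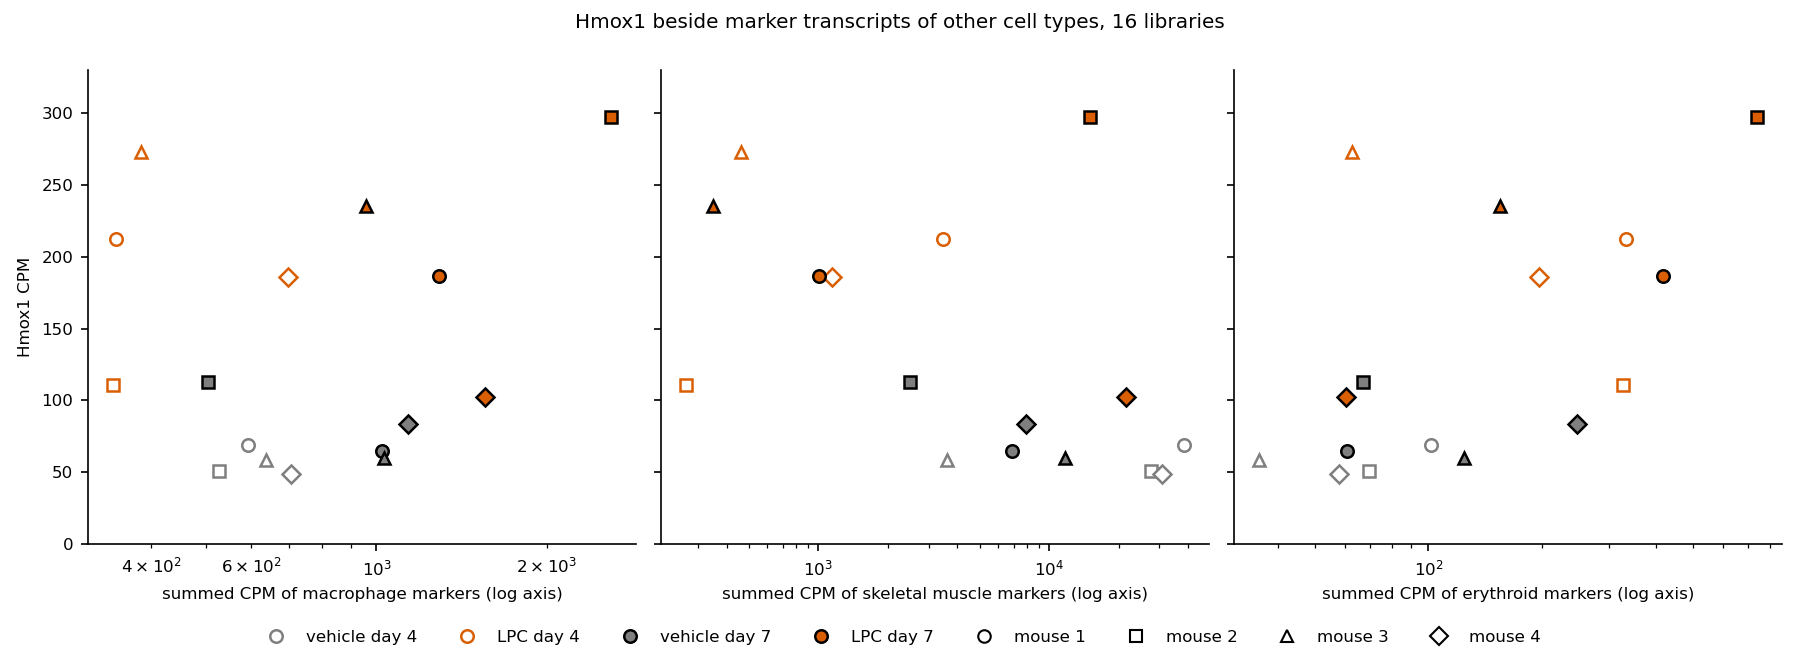
Hmox1 CPM (linear y axis) against the summed CPM of macrophage, skeletal muscle and erythroid markers (log x axes) in 16 libraries, with colour for treatment, fill for day and shape for mouse number. The 4 LPC day 4 libraries have high Hmox1 at macrophage sums of 342 to 699 CPM, while LPC day 7 mouse 2 has the highest Hmox1, macrophage and erythroid values at once.

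The genes whose pattern was most like that of Hmox1 were sought among 13845 tested genes whose average log2 CPM reached 1. Likeness was the mean absolute difference in log2 CPM over 16 libraries after each gene was centred on its own mean, which had a median of 0.82 over all genes. This measure depends on the size of changes as well as on their direction, so a nearly flat gene can rank above a variable one. The nearest were Unc13a (0.30), Spred3 (0.34), Runx1 (0.39), Tm4sf1 (0.40) and Ero1l (0.41). Unc13a was found at 0.786 to 4.43 CPM, so few counts lie behind its pattern. Of the other 9 genes of the group, Ugdh came nearest, at 28th with 0.46, then Nqo1 at 533rd with 0.60 and Txnrd1 at 706th with 0.61. Gclm and Srxn1 were 1093rd and 1410th, Cbr3 and Gclc 4906th and 5163rd, and Gsta2 and Slc7a11 8260th and 8848th, with 0.86 and 0.88, differences above the median gene.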

How the data were processed

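RNA of 16 ear skin libraries, 1 per mouse, was sequenced on a BGISEQ-500 and aligned with Bowtie2 to GRCm38, per the labels' protocols. The authors deposited, per gene, RSEM expected counts (estimated counts, not always whole) and FPKM values. A gene missing from a library was taken as 0. Groups came from the sample titles, since the days in other names of the deposited data differ from them. For tool versions and strand setting, the sources used here give nothing.

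Expected counts were rounded and fitted in edgeR 4.0.16 (R 4.3.3; filterByExpr, TMM, quasi-likelihood test, a mean per group, 12 residual degrees of freedom), with an adjusted p below 0.05 as the call. The biological coefficient of variation was 35.0%. The same fitting function was also run on simulated counts with known changes. Those counts held no differences in tissue content, so that run does not bear on the calls here. Alternatives used median-of-ratios size factors, other filters, DESeq2 1.42.0, limma 3.58.1 on log2(FPKM + 0.1) or log2(FPKM + 1) (genes with at least 0.5 FPKM in 4 libraries, or no filter), fewer libraries, a replicate block and a muscle score. The genes, gene lists and marker lists were chosen with earlier results of these data known. Named genes beyond the 10 are list members called with LPC, a set of regulators, the best-ranked gene of lists without a call, and the 5 nearest to Hmox1. Of 257 list symbols, 256 matched, 1 by RefSeq gene ID. The values of 1 red cell marker are not reported here.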

Additional observations from a re-analysis of the deposited data

How the results depend on the processing

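Of all the values, the rise of Hmox1 over both days was called under every alternative run, with a log2 fold change from 1.42 to 1.58 (from 1.44 to 1.68 with 1 library left out), and that of Ugdh under all but the muscle covariate. The calls of Hmox1 and Ugdh at 1 day lay close to the threshold, and the cause of their loss under other settings was not tested. There were 4 mice per group, and depth limits Gsta2, with its low counts, most among the 10 genes. The replicate numbers did not pair the samples: same-numbered libraries correlated above 0.1 in 9 of 24 pairs (from -0.60 to 0.54), and 2 of 16 libraries correlated best with their own number. With the replicate block, Hmox1 was not called at day 4 (1.79, adjusted p = 0.0983) or day 7 (1.31, adjusted p = 0.0665), and Ugdh was not called at day 4 (1.27, adjusted p = 0.0983). Also lost with the block were Hpx and Nfe2 at day 7 (adjusted p = 0.0865 and 0.0707) and Akr1b3, Blvrb, Gsr, Mgst3 and Trib3 over both days (adjusted p from 0.057 to 0.0879).

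Of the 10 genes, those called at day 4 (2) numbered 1 with median-of-ratios size factors and 0 without a low-count filter, with the replicate block or with the muscle score, and 3 (Hmox1, Nqo1 and Ugdh) with only the groups compared. At day 7 (1, Hmox1) they numbered 0 with the replicate block, with only the groups compared or with limma on log2(FPKM + 0.1) without a filter, and 2 (Cbr3 and Hmox1) with the muscle score. With filtered limma on log2(FPKM + 0.1) or log2(FPKM + 1) the count at day 7 was again 1, but the gene was Cbr3 and Hmox1 was not called. For day 7 against day 4 (0 in both treatments) DESeq2 called 2 in vehicle and 2 in LPC mice, and limma called 1 in LPC mice with either pseudocount. For the difference between days (0) DESeq2 called 2, and for the mean of both days (2) the muscle score left 1. With 1 library left out these counts were 0 to 2, 0 to 1, 0 to 2 (vehicle), 0 to 1 (LPC), 0 to 0 and 2 to 2.

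Of all genes, 22 called at day 4 became 8 without a filter, 2 with the replicate block, 0 with the muscle score, 1333 with only the groups compared, 1104 with DESeq2, and 45, 63 and 47 with limma on log2(FPKM + 0.1), on log2(FPKM + 1) and without a filter. The 604 at day 7 became 351 with the replicate block, 1173 with the muscle score, 45 with only the groups compared and 1448 with DESeq2. For day 7 against day 4, DESeq2 gave 238 in place of 0 in vehicle mice, and in LPC mice 1736 became 901 with the replicate block, 1016 with the muscle score, 1100 with only the groups compared and 3073 with DESeq2. For the difference between days 0 became 1 with median-of-ratios size factors, 585 with DESeq2, 1 with limma on log2(FPKM + 1) and 2 without a filter. The 642 of the mean became 276 with the replicate block, 286 with the muscle score, 1792 with DESeq2 and 387 with limma without a filter. With 1 library left out the counts were 0 to 683, 111 to 712, 0 to 205 (vehicle), 518 to 2207 (LPC), 0 to 214 and 142 to 1598.

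Signs turned only for values that were not called. With the muscle score these were Nqo1 (-0.27 at day 4, -0.15 at day 7, 0.20 for day 7 against day 4 with LPC, 0.13 for the difference and -0.21 for the mean), Gclc (-0.0597 at day 4, -0.0694 for day 7 against day 4 with vehicle and -0.24 for the mean), Slc7a11 (-0.12 at day 4), Srxn1 (-0.0416 at day 7) and Txnrd1 (0.14 for the difference). For day 7 against day 4 with LPC, Gclm (0.0028), Gsta2 (0.0425) and Cbr3 (0.0540) turned too. With limma on log2(FPKM + 0.1), with or without a filter, and on log2(FPKM + 1), Hmox1 for day 7 against day 4 with LPC was -0.0863, -0.0863 and -0.0851, and at day 7 Nqo1 was -0.0207, -0.0207 and -0.0134, Gclm -0.0150, -0.0150 and -0.0145, and Srxn1 -0.1169, -0.1169 and -0.1119. In those limma fits the median of all genes was -0.12, -0.09 and -0.09 in each of these comparisons. With the replicate block Srxn1 at day 7 was -0.0026. With 1 library left out, values for day 7 against day 4 with LPC ran from -0.1655 to 0.2959 for Hmox1, from -0.3451 to 0.2218 for Nqo1, from -0.2903 to 0.1115 for Gsta2 and from -0.1288 to 0.0248 for Cbr3. At day 7 they ran from -0.0011 to 0.2110 for Gclm, from -0.0954 to 0.1223 for Srxn1 and from -0.0141 to 0.4822 for Txnrd1. They ran from -0.3945 to 0.1207 for Txnrd1 in the difference, from -0.0115 to 0.1423 for Gclc and from -0.0510 to 0.0258 for Cbr3 in the mean, and from -0.0301 to 0.2334 for Gclc in vehicle mice between days.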
